A study of Mus musculus with 18 samples.

Results

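The small nucleolar RNA (snoRNA) and small Cajal body RNA (scaRNA) genes were taken from the 2 gene count tables of C3H/10T1/2 cells, a mouse mesenchymal progenitor line. A gene row was a member when its Entrez identifier carried a symbol of *Snora*, *Snord* or *Scarna* followed by a number. 111 of the 24100 gene rows met this rule, and they were the same rows in both tables. 68 were box C/D genes (*Snord*), 34 were box H/ACA genes (*Snora*) and 9 were Cajal body RNA genes (*Scarna*).

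The study sequenced RNA of wild-type (WT) cells and of 2 *Atrx* knockout (KO) clones, sg5 and sg6, grown without differentiation cues. WT cells had received the Cas9 vector without a guide RNA, and each KO line was 1 clone made with 1 guide against *Atrx*, so clone and guide cannot be told apart. Each line gave 3 polyA-selected libraries, prepared at one facility and quantified with Salmon, and 3 rRNA-depleted libraries, prepared at another and counted with TElocal after STAR alignment. Selection, facility and counting method therefore differed together between the kinds of library and cannot be told apart. Nothing states that the 3 libraries of a line came from separate cultures, so p-values measure only the spread between these libraries.

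Levels are given in CPM, the counts of a row scaled to 1000000 gene counts of its library. *Atrx* (mm10, chrX:105797615-105929403, minus strand), the targeted gene, had 287, 322 and 354 CPM in the polyA WT libraries, 136, 111 and 128 in sg5 and 115, 124 and 135 in sg6. In rRNA-depleted libraries it had 239, 222 and 296 CPM in WT, 121, 60.5 and 79.1 in sg5 and 108, 78.5 and 90.0 in sg6. The KO libraries lay below every WT library in both kinds (edgeR log2 fold change -1.24 in sg5 and -1.20 in sg6 for polyA, adjusted p = 5.04e-05 and 5.15e-05; -1.39 and -1.31 for rRNA-depleted, adjusted p = 0.00138 and 0.00227). Gene counts per library ran from 27544833 to 235346363 in the polyA table, with the sg5 libraries at the top, and from 18044911 to 28030873 in the rRNA-depleted table. Of 11 mesenchymal progenitor markers, 8 were at 10 CPM or more in every polyA library and 7 in every rRNA-depleted library. The markers that fell short were *Thy1*, *Nt5e* and *Cd34* in both kinds and also *Eng* in rRNA-depleted libraries. *Nt5e* stayed under 1 CPM throughout, and *Thy1* was under 2 CPM in WT and sg5 but 114 to 145 CPM in polyA sg6, and the part of this in any sg6 result was not tested. *Ptprc*, *Epcam* and *Pecam1*, markers of blood, epithelial and endothelial cells, were under 1 CPM in every library, and with *Tubb3* summed to 3.16 to 8.93 CPM.

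Box C/D snoRNAs guide 2'-O-methylation of ribosomal and spliceosomal RNA with the methyltransferase fibrillarin, and box H/ACA snoRNAs guide pseudouridylation with dyskerin. Small Cajal body RNAs do the same for spliceosomal RNAs in the Cajal body, and some carry both kinds of domain. In mammals most of these RNAs lie in introns of host genes, many of which code for ribosomal proteins and translation factors, and are trimmed out of the spliced intron by exonucleases. The mature RNAs have no poly(A) tail.

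The members were short and mostly intronic. In the GENCODE annotation of GRCm38 (mm10) their median length was 90 nucleotides (nt), with a range of 64 to 414 nt. 5 members were 200 nt or longer, namely *Scarna2*, *Scarna6*, *Scarna10*, *Scarna13* and *Snord17*. 105 members lay inside a host gene on the same strand, and for 32 of them the host was a ribosomal protein gene. 55 members lay in introns alone, 42 lay within an exon of some host transcript, in most cases an annotated retained-intron transcript, 8 overlapped such an exon in part and 6 had no host. 19 hosts carried 2 or more members, 44 in all, so these rows share a precursor. 6 members also overlapped a gene on the opposite strand, and the strand setting of the counting was not given in the sources used here.

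The class names of the C/D and H/ACA members fitted the conserved boxes of most sequences. The C box letters TGATGA (one form of a degenerate motif) stood within the first 25 bases of 41 of 68 C/D members (60.3%) and of 0 of 34 H/ACA members. The D box letters CTGA stood within the last 15 bases of 61 of 68 C/D members (89.7%) and of 2 of 34 H/ACA members. ACA stood exactly 3 bases from the 3' end of 28 of 34 H/ACA members (82.4%), of 0 of 68 C/D members and of 2 of 9 Cajal body members. Both TGATGA and CTGA stood in these windows in 39 of 68 C/D members (57.4%). Of the 9 Cajal body members, 4 had TGATGA and 5 had CTGA there. The sense strand alone was searched, and a sequence without these letters in these windows may hold another form of the box.

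The sequences that follow are the genomic sense strand of GRCm38 at the GENCODE coordinates. The first set holds the neighbours *Snord33* (chr7:45126864-45126947, minus strand) and *Snord34* (chr7:45126601-45126670, minus strand), both from *Rpl13a*, and *Snord96a* (chr11:48802032-48802112, plus strand), from *Rack1*. They are shown because *Snord33* and *Snord34* share a host at unlike rRNA-depleted levels, and *Snord33* and *Snord96a* had the highest C/D levels. Capitals mark TGATGA near the 5' end and CTGA near the 3' end.
Snord33: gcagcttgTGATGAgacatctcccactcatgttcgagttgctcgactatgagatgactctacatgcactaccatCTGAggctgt
Snord34: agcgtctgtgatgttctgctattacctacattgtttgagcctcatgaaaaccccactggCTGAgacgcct
Snord96a: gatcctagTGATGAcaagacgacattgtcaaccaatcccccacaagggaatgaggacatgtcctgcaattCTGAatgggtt

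The second set holds members whose polyA level differed between a KO clone and WT or stood among the highest. These were *Snord42b* (chr11:78183056-78183124, minus strand), from *Rpl23a*, *Snord2* (chr16:23108953-23109021, plus strand) and *Snora81* (chr16:23110756-23110933, plus strand), both from *Eif4a2*, *Snord104* (chr11:106500993-106501062, plus strand), with no host, and *Snora65* (chr2:32963291-32963420, plus strand), from *Rpl12*. In *Snora65* the capitals mark the ACA. *Snora81* has no ACA at that place in the annotated interval and is printed without capitals.
Snord42b: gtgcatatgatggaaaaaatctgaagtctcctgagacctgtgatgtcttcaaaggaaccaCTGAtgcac
Snord2: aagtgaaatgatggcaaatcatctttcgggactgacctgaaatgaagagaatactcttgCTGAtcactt
Snora81: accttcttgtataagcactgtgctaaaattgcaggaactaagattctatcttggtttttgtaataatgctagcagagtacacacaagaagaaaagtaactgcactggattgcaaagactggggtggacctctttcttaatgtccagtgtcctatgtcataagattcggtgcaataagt
Snord104: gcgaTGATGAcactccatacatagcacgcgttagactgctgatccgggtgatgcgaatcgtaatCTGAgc
Snora65: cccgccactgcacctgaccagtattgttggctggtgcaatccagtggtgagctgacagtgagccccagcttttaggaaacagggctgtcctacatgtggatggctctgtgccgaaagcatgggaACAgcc

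The third set holds *Scarna13* (chr12:105031075-105031349, minus strand), the Cajal body RNA of the *Snhg10* locus, which was measured in both kinds of library. The capitals mark the ACA of its 3' end.
Scarna13: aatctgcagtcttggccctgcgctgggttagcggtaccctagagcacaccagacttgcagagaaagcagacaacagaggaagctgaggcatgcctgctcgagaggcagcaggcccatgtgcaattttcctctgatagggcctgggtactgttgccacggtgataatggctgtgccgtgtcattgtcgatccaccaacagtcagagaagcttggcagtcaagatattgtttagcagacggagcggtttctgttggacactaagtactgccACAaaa

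Members held a far larger part of the rRNA-depleted than of the polyA gene counts. Summed over all 111 rows they came to 41.2 to 50.4 CPM in the 9 polyA libraries and to 1359 to 1952 CPM in the 9 rRNA-depleted libraries, which is 0.00412% to 0.00504% and 0.136% to 0.195% of gene counts. The WT, sg5 and sg6 sums averaged 43.1 ± 2.00, 47.8 ± 2.25 and 43.9 ± 1.92 CPM in polyA libraries (SD, n = 3 each). They averaged 1721 ± 78.0, 1819.6 ± 129.8 and 1715 ± 313 CPM in rRNA-depleted libraries. The 3 lines overlapped in the rRNA-depleted libraries, and in polyA every sg5 library (46.4 CPM or more) lay above every WT and sg6 library (45.7 CPM or less). All differences between kinds of library were many times the spread between libraries, but they join unlike preparations and counting methods.

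**Figure D1:**
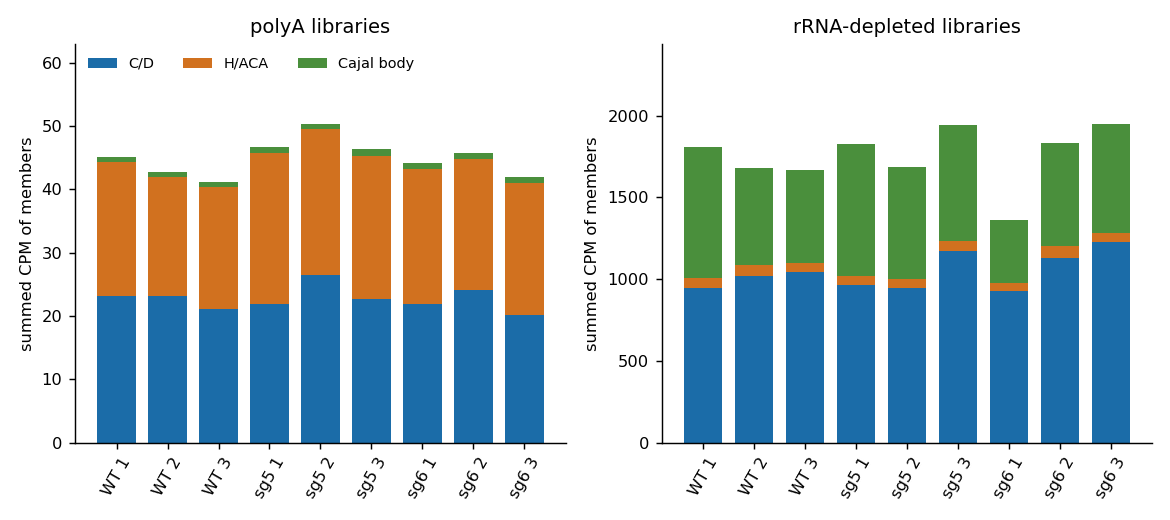
Stacked bars give the summed CPM of H/ACA, C/D and Cajal body members in each of the 9 polyA (left) and 9 rRNA-depleted (right) libraries; the vertical scales differ. Cajal body members are at most 1.08 CPM in polyA libraries and between 385 and 810 CPM in rRNA-depleted libraries.

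The make-up of the sum also differed. In polyA libraries H/ACA members gave 44.1% to 50.9% of member counts, C/D members 47.1% to 54.1% and Cajal body members 1.75% to 2.34%. In rRNA-depleted libraries H/ACA members gave 2.76% to 4.09%, C/D members 52.4% to 68.4% and Cajal body members 28.3% to 44.4%. 5 genes, *Snord33*, *Snord96a*, *Scarna10*, *Scarna2* and *Scarna13*, accounted for 1223 to 1759 CPM of each rRNA-depleted library, or 87.4% to 91.2% of member counts. The same 5 gave 9.33% to 11.9% of member counts in polyA libraries. Without them, the other 106 members summed to 38.4, 43.1 and 39.3 CPM in polyA WT, sg5 and sg6 and to 185, 172 and 187 CPM in the rRNA-depleted libraries (means of 3), so the gap between kinds was smaller for most members than for the total.

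Most rows were low in both tables. 100 of 111 members averaged under 1 CPM in polyA libraries and 61 did so in rRNA-depleted libraries. None averaged 10 CPM or more in polyA, against 8 in rRNA-depleted libraries, 4 of them at 100 CPM or more. The median member had a mean of 0.158 CPM in polyA and 0.810 CPM in rRNA-depleted libraries. 13 members were at 0 in all polyA libraries and 4 of them, *Snora35*, *Snord14d*, *Snord53* and *Snord64*, at 0 in all rRNA-depleted libraries too. *Snord64*, from the imprinted *Snrpn* region, was the single member of the imprinted snoRNA groups in the tables. With a count of 0, up to 3 counts per library remain possible, and such limits cover counting error only.

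Detection followed depth within polyA libraries but not between kinds. The WT polyA libraries had 33, 59 and 39 members with at least 10 counts, sg5 had 74, 81 and 75, and sg6 had 59, 57 and 53. The rRNA-depleted libraries had 77, 81 and 86 in WT, 74, 68 and 81 in sg5 and 62, 87 and 77 in sg6. After every library was thinned to 18044911 gene counts, the polyA libraries had 20 to 27 such members and the rRNA-depleted libraries 57 to 80. Thinned, the sg5 polyA libraries had 23 to 27 such members and those of WT 21 to 27.

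Member levels were compared between kinds of library on the log2(CPM + 0.5) scale, which understates the difference for low members. Over the 107 members with a count in either table, the median log2 ratio of rRNA-depleted to polyA means was 0.99 in WT, 0.76 in sg5 and 0.84 in sg6. The medians of all 20963 genes with counts were -0.06, -0.03 and -0.03. 103, 97 and 105 of the 107 members were above 0 in WT, sg5 and sg6, against 37.7% to 37.9% of all genes, and 11, 10 and 11 were above 3, against 1.0% to 1.04% of all genes. No test was run between kinds, since they share no preparation. Members below 0 in WT were *Snora31*, *Snora41*, *Snord57* and *Snord73a*.

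**Figure D2:**
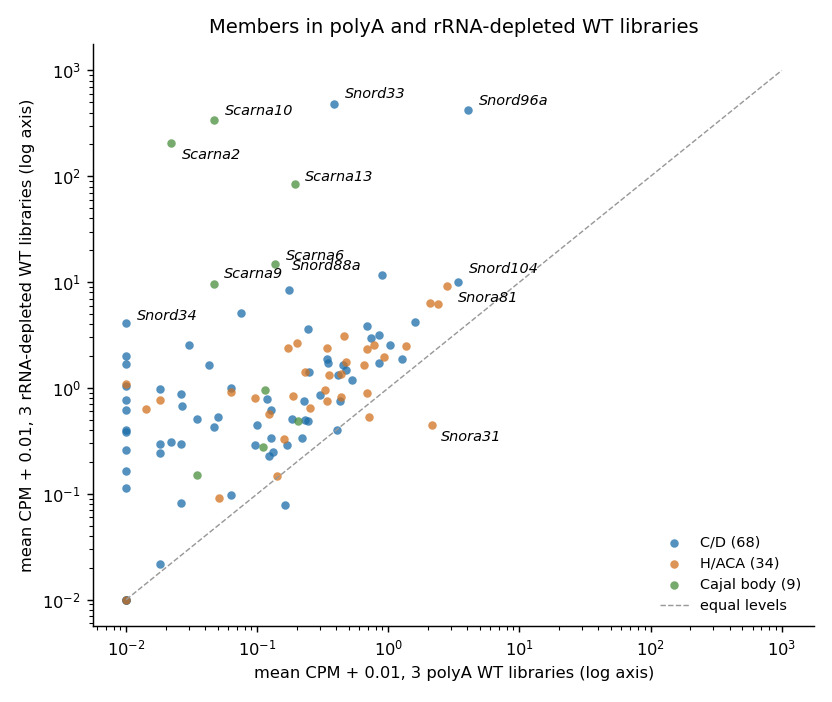
Each point is 1 member, at its mean CPM + 0.01 in the 3 polyA WT libraries (x, log axis) and in the 3 rRNA-depleted WT libraries (y, log axis), coloured by class, with a dashed line at equal levels. Most points lie above the line; *Scarna10*, *Scarna2* and *Snord33* lie highest above it and *Snora31* lies below it.

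The members longest in GENCODE all had high ratios, and some short ones did too. The longest were Cajal body members except *Snord17*, so length and class cannot be told apart among them. RefSeq gives *Scarna10* and *Scarna2* only 71 and 61 nt. All 5 members of 200 nt or more had a WT log2 ratio above 3, with a median of 6.95 and a minimum of 3.74, whereas the 102 shorter members had a median of 0.95 and 6 of them were above 3, among them *Snord33* (9.12) and *Snord96a* (6.52). Across all 107 members the rank correlation of ratio with length was weak (Spearman's rho 0.14 in WT, 0.10 in sg5 and 0.10 in sg6; a description across genes, which share hosts and libraries). Members lying wholly or partly in an exon of a host transcript had a WT median of 1.16 (48 members) and members in introns alone 0.79 (53 members). Cajal body members had medians of 4.24, 3.67 and 3.39 in WT, sg5 and sg6, H/ACA members 1.12, 0.62 and 0.84 and C/D members 0.91, 0.76 and 0.81.

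**Figure D3:**
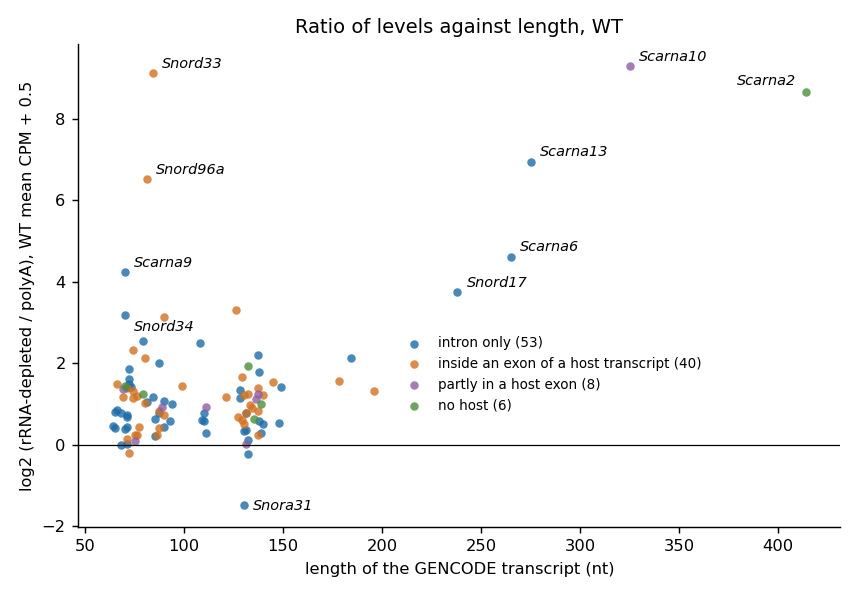
Each point is 1 of 107 members, at its GENCODE length in nt (x) and its WT log2 ratio of rRNA-depleted to polyA mean CPM + 0.5 (y), coloured by its position in the host gene. The 5 members of at least 200 nt all lie at 3.74 or above; shorter members lie mostly between 0 and 2.

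*Snord33*, which guides methylation of 18S rRNA, was the highest member of the rRNA-depleted libraries by CPM and also per kb of its length. It had 468, 484 and 506 CPM in WT, 570.2, 533 and 677 in sg5 and 443, 542 and 634 in sg6. The sg5 libraries lay above those of WT and the sg6 libraries overlapped both. Its WT, sg5 and sg6 polyA libraries averaged 0.373 ± 0.150, 0.423 ± 0.0685 and 0.393 ± 0.0637 CPM (SD, n = 3 each), so the rRNA-depleted mean was 1303, 1402 and 1374 times the polyA mean. Its edgeR log2 fold change in rRNA-depleted libraries was 0.44 ± 0.15 (SE) in sg5 and 0.29 ± 0.15 in sg6, and neither passed (adjusted p = 0.135 and 0.472). The host *Rpl13a*, a ribosomal protein gene, had 0.51 (adjusted p = 0.0518) and 0.38 (adjusted p = 0.216).

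Members of one host did not share one measured level, and how evenly the preparations recover RNAs this short was not tested. Averaged over 9 rRNA-depleted libraries and divided by the GENCODE length, *Snord33* stood at 6423 CPM per kb, *Snord34* at 57.2 and *Snord35a* at 8.22, although all 3 are encoded in *Rpl13a*. The ratio of *Snord33* to *Snord34* per kb was 99.4 in WT, 136 in sg5 and 105 in sg6. *Snord34* had 2.88, 4.81 and 4.53 CPM in WT, 2.54, 4.10 and 4.30 in sg5 and 3.10, 5.49 and 4.29 in sg6, which overlapped. In polyA libraries it was at 0 in all but 1 sg5 library. All 31-base words of *Snord33* also occur in annotated *Rpl13a* transcripts, and none of *Snord34* do.

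*Snord96a*, in the *Rack1* gene of the small ribosomal subunit protein RACK1, was the highest polyA member and the next after *Snord33* in rRNA-depleted libraries, by CPM and per kb (49.2 and 4997 CPM per kb). Its polyA levels were 3.78, 4.43 and 3.99 CPM in WT, 3.94, 4.54 and 3.43 in sg5 and 3.53, 4.57 and 3.65 in sg6. The lines overlapped. Its rRNA-depleted levels were 384, 428 and 446 CPM in WT, 313, 324 and 397 in sg5 and 407, 457 and 486 in sg6, with every sg5 library below every sg6 library. The difference between the clones was -0.37 on the log2 scale and did not pass the adjusted test (adjusted p = 0.48, edgeR). The rRNA-depleted mean was 103, 86.8 and 115 times the polyA mean in WT, sg5 and sg6.

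*Scarna10* and *Scarna2*, long Cajal body RNAs, were almost unseen in polyA libraries. *Scarna10* had 0 to 17 counts in any polyA library and 433, 298 and 285 CPM in rRNA-depleted WT, 418, 395 and 358 in sg5 and 174, 305 and 309 in sg6. *Scarna2*, which has no host, had at most 0.0417 CPM in polyA libraries and 251, 189.9 and 181 CPM in rRNA-depleted WT, 283, 186 and 242 in sg5 and 111, 186 and 239 in sg6. The first sg6 library was the lowest of the 9 for both. Neither differed between a clone and WT past the threshold (adjusted p of 0.52 and 0.772 for *Scarna10* in sg5 and sg6, 0.572 and 0.939 for *Scarna2*). Per kb they stood at 1017 and 502 CPM on the GENCODE lengths of 325 and 414 nt, but RefSeq gives them 71 and 61 nt, on which they would stand at 4656 and 3404 CPM. 85.1% of the 31-base words of *Scarna10* also occur in another annotated gene, *Gm28967*, and none of those of *Scarna2* do.

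*Scarna13* was seen in both kinds of library. It had 90.0, 81.3 and 81.2 CPM in rRNA-depleted WT, 82.7, 79.2 and 85.0 in sg5 and 87.2, 110.5 and 91.1 in sg6. In polyA libraries it had 0.109, 0.198 and 0.240 CPM in WT, 0.236, 0.259 and 0.343 in sg5 and 0.334, 0.386 and 0.289 in sg6, with every sg6 library above every WT library. It rose in polyA sg6 by 0.99 ± 0.31 on the log2 scale (adjusted p = 0.0373, edgeR), just under the log2 limit of 1 that a call needed. In rRNA-depleted sg6 its log2 fold change was 0.33 (adjusted p = 0.409). The polyA WT values rest on 3, 16 and 10 counts. The adjusted p was 0.05 or more in 6 of 9 fits that left out 1 library, those without the first or the second WT library, the second sg5 library or any 1 sg6 library (0.0439 to 0.111 over the 9).

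The remaining Cajal body members were lower. *Scarna6*, in an intron of *Atg16l1*, had 16.3, 15.9 and 12.5 CPM in rRNA-depleted WT, 16.7, 17.8 and 20.0 in sg5 and 8.47, 17.8 and 20.5 in sg6, which overlapped. *Scarna9*, in an intron of *Cep295*, had 11.4, 10.1 and 7.31 CPM in WT, 7.81, 4.77 and 5.75 in sg5 and 2.55, 6.38 and 5.56 in sg6. All sg6 libraries lay under the lowest of WT, and the log2 fold change of -0.87 did not pass (adjusted p = 0.264, edgeR). *Scarna17*, *Scarna3a*, *Scarna8* and *Scarna3b* averaged 1.18, 0.388, 0.183 and 0.106 CPM. Summed over the 9 genes, the rRNA-depleted levels of WT, sg5 and sg6 averaged 657 ± 128, 735 ± 65.9 and 560.4 ± 153 CPM (SD, n = 3 each) and overlapped, with the first sg6 library lowest at 385 CPM.

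**Figure D4:**
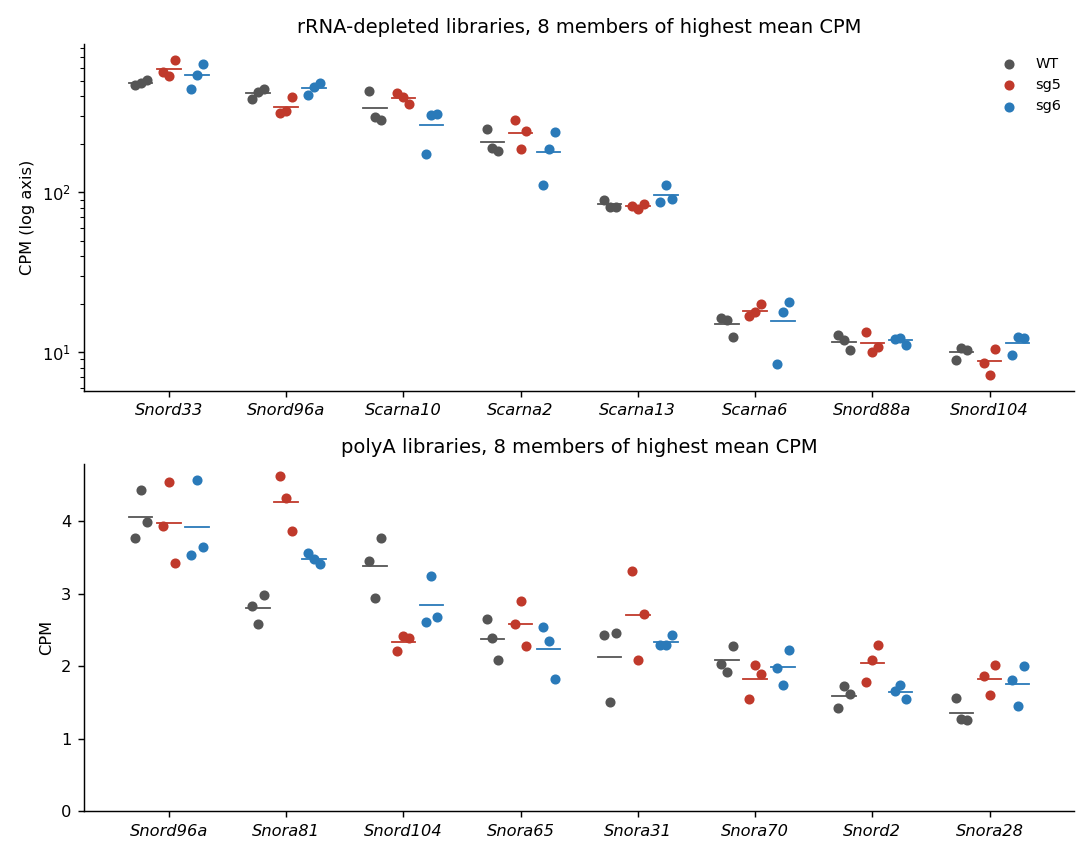
Points give the CPM of each library for the 8 members of highest mean CPM in rRNA-depleted (top, log axis) and polyA libraries (bottom, linear axis from 0), coloured by line, with a bar at each mean of 3. In polyA the sg5 points of *Snora81* lie above those of WT and the sg5 points of *Snord104* below them; in rRNA-depleted libraries the first sg6 library is lowest for *Scarna10*, *Scarna2* and *Scarna6*.

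In rRNA-depleted libraries *Snord88a* and *Snord104* completed the 8 highest. *Snord88a*, in *2410002F23Rik*, had 12.8, 11.9 and 10.3 CPM in WT, 13.4, 10.1 and 10.7 in sg5 and 12.2, 12.3 and 11.2 in sg6, which overlapped. *Snord104*, which has no annotated host here, had 8.98, 10.7 and 10.3 CPM in WT, 8.60, 7.20 and 10.4 in sg5 and 9.53, 12.4 and 12.3 in sg6. Neither passed the adjusted test in a clone.

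*Snora81* and *Snord2*, which share the host *Eif4a2* (mm10, chr16:23107444-23114136, plus strand), a gene of the translation initiation factor eIF4A, were higher in polyA sg5 than in WT. *Snora81* had 2.83, 2.59 and 2.98 CPM in WT, 4.62, 4.32 and 3.87 in sg5 and 3.56, 3.48 and 3.41 in sg6, and both clones lay above WT without overlap. It rose by 0.73 ± 0.14 (SE) in sg5 (adjusted p = 0.00451) and by 0.48 ± 0.14 in sg6 (adjusted p = 0.0271, edgeR, log2 scale). *Snord2* had 1.42, 1.72 and 1.61 CPM in WT, 1.78, 2.08 and 2.29 in sg5 and 1.66, 1.75 and 1.54 in sg6. It rose in sg5 by 0.48 ± 0.16 (adjusted p = 0.0493), with every sg5 library above every WT library, and its value in sg6 was 0.22 (adjusted p = 0.345). The host itself had 0.19 and 0.16 (adjusted p = 0.371 and 0.43). With each of the 9 libraries left out, the sg5 rise of *Snora81* kept an adjusted p of 0.00654 to 0.0265. Its sg6 rise missed the threshold in 4 of 9 such fits (without the WT library numbered 2 or any 1 sg6 library, up to 0.109). The *Snord2* rise missed it in 8 of 9, all but that without the first sg5 library (0.0410 to 0.163).

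The rRNA-depleted libraries gave no such difference for either. *Snora81* had 7.61, 9.23 and 10.9 CPM in WT, 8.73, 7.20 and 7.69 in sg5 and 9.58, 10.5 and 7.68 in sg6 (log2 fold change -0.07 and 0.15, adjusted p = 0.915 and 0.845, edgeR). *Snord2* had 0.31 in sg5 (adjusted p = 0.563). All 31-base words of both members also occur in annotated *Eif4a2* transcripts, and 81.1% of those of *Snora81* occur in 4 other genes, so its counts may be shared with them.

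*Snord42b*, a C/D gene of *Rpl23a*, was the single member called between a KO clone and WT. It had 0.218, 0.322 and 0.168 CPM in polyA WT, 0.342, 0.361 and 0.288 in sg5 and 0.612, 0.417 and 0.373 in sg6, from 6, 26 and 7, 55, 85 and 47, and 44, 27 and 22 counts. Every sg6 library lay above every WT library. It rose in sg6 by 1.09 ± 0.32 on the log2 scale (adjusted p = 0.0288, edgeR) and had 0.54 in sg5 (adjusted p = 0.231). In rRNA-depleted libraries it had 1.56, 1.53 and 1.11 CPM in WT, 1.16, 1.22 and 1.24 in sg5 and 1.20, 1.90 and 1.23 in sg6, which overlapped (sg6 log2 fold change 0.19, adjusted p = 0.896). *Rpl23a* itself had a polyA log2 fold change of 0.06 in sg6 (adjusted p = 0.784). The polyA call was lost without the first or the third WT library or the first or the second sg6 library (adjusted p = 0.0534, 0.0848, 0.113 and 0.0523).

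The other polyA members of highest level did not pass the adjusted test. *Snord104* had 3.45, 2.93 and 3.77 CPM in WT, 2.21, 2.41 and 2.39 in sg5 and 2.61, 3.24 and 2.68 in sg6, and every sg5 library lay below every WT library (log2 fold change -0.41, adjusted p = 0.081, edgeR). *Snora28*, of *Eif5*, had 1.56, 1.26 and 1.25 CPM in WT, 1.86, 1.61 and 2.01 in sg5 and 1.81, 1.45 and 2.00 in sg6 (0.55 in both clones, adjusted p = 0.0584 and 0.0604, edgeR). Its sg5 libraries lay above WT and one sg6 library did not. *Snora65*, of *Rpl12*, and *Snora70*, of *Rpl10*, averaged 2.40 and 1.96 CPM over the 9 libraries, with log2 fold changes between -0.07 and 0.24.

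*Snora31*, in an intron of *Tpt1*, went against the other high members in the comparison of library kinds. It had 2.43, 1.50 and 2.45 CPM in polyA WT and 0.378, 0.340 and 0.606 CPM in rRNA-depleted WT, without overlap. Its rRNA-depleted mean was 0.208, 0.228 and 0.195 times the polyA mean in WT, sg5 and sg6. None of its 31-base words occur in host transcripts or other annotated genes. Its clone differences did not pass in either kind (adjusted p = 0.171 and 0.361 for polyA sg5 and sg6, edgeR).

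Over all members, fold changes between lines were tested with edgeR in fits of every feature, and a call needed an adjusted p below 0.05 and a log2 fold change beyond 1. Fits were scaled by TMM, on which log2 fold changes stand above those of plain CPM means by 0.12 and 0.16 for polyA sg5 and sg6 and by 0.16 and 0.14 for rRNA-depleted sg5 and sg6. 65 members passed the filter on low counts in polyA and 83 in rRNA-depleted libraries. A member can pass this filter through a single line in which it is high, so counts over those that passed describe them only. sg5 and sg6 were compared with the same WT libraries.

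In polyA libraries 0 of 65 members were called in sg5, against 10.1% of genes tested, and 1 of 65, *Snord42b*, in sg6, against 11.2% (3.64% for higher calls). DESeq2 called 0 and 1, and 11 and 8 members had an unadjusted p under 0.05. By adjusted p alone 2 members rose in sg5, *Snora81* and *Snord2*, against 13.6% of genes higher and 27.0% in either direction. 3 rose in sg6, *Snora81*, *Snord42b* and *Scarna13*, against 16.1% higher and 30.7% in either direction. In the edgeR fit none fell by adjusted p. DESeq2 had 3 higher and 1 lower, *Snord104*, in sg5, which was also lower with thinned counts, and *Snora41* was lower in sg6 among genes with at least 10 counts in every library. Between sg5 and sg6, 0 members were called by edgeR or DESeq2, against 2.61% of genes. By adjusted p alone 0 passed in the edgeR fit, against 4.79%, and 3 had an unadjusted p under 0.05. DESeq2, the replicate block and the filter of at least 10 counts in every library each had 1 member higher in sg5 by adjusted p.

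In rRNA-depleted libraries no member was called or passed by adjusted p alone in any comparison. The backgrounds were 7.35% called and 10.7% by adjusted p alone in sg5, 5.75% and 7.58% in sg6, and 1.48% and 1.57% between the clones. 3, 5 and 6 of 83 members had an unadjusted p under 0.05 in the edgeR fits, and DESeq2 called 0 in each. The smallest adjusted p was 0.135 in sg5, for *Snord33*, 0.245 in sg6, for *Snora74a*, and 0.30 between the clones, for *Snord65*.

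The precision was limited. The median SE of a member's log2 fold change was 0.30 and 0.32 for polyA sg5 and sg6 and 0.39 and 0.38 for rRNA-depleted sg5 and sg6. Among members of at least 1 CPM the median coefficient of variation between libraries of a line was 12.1% to 12.3% in polyA, and 15.6% in WT, 20.0% in sg5 and 32.4% in sg6 of the rRNA-depleted libraries. Log2 fold changes ranged from -0.45 to 1.40 in polyA sg5, from -0.74 to 1.46 in polyA sg6, from -0.98 to 0.95 in rRNA-depleted sg5 and from -0.87 to 1.02 in rRNA-depleted sg6. In bulk samples fewer cells of a kind and less RNA per cell cannot be told apart.

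The polyA fold changes of the members tested lay more often above 0 than below. 51 of 65 were above 0 in sg5 and 49 in sg6, against 49.7% and 49.5% of all genes. The medians were 0.33 and 0.20, where the median of all genes was -0.00 and -0.01. A member could pass the filter through the line where it was high, so these counts describe the members that passed only. With at least 10 counts in every library, 31 members were tested, 24 and 22 were above 0 and the medians were 0.23 and 0.08. With every library thinned to the smallest polyA library, 39 members were tested and the medians were 0.20 and 0.13. In rRNA-depleted libraries the medians were -0.07 in sg5 and 0.16 in sg6, against 0.08 and 0.04 for all genes. With each rRNA-depleted library left out in turn, the median ran from -0.16 to 0.08 in sg5 and from -0.09, without the second sg6 library, to 0.42, without the first, in sg6.

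**Figure D5:**
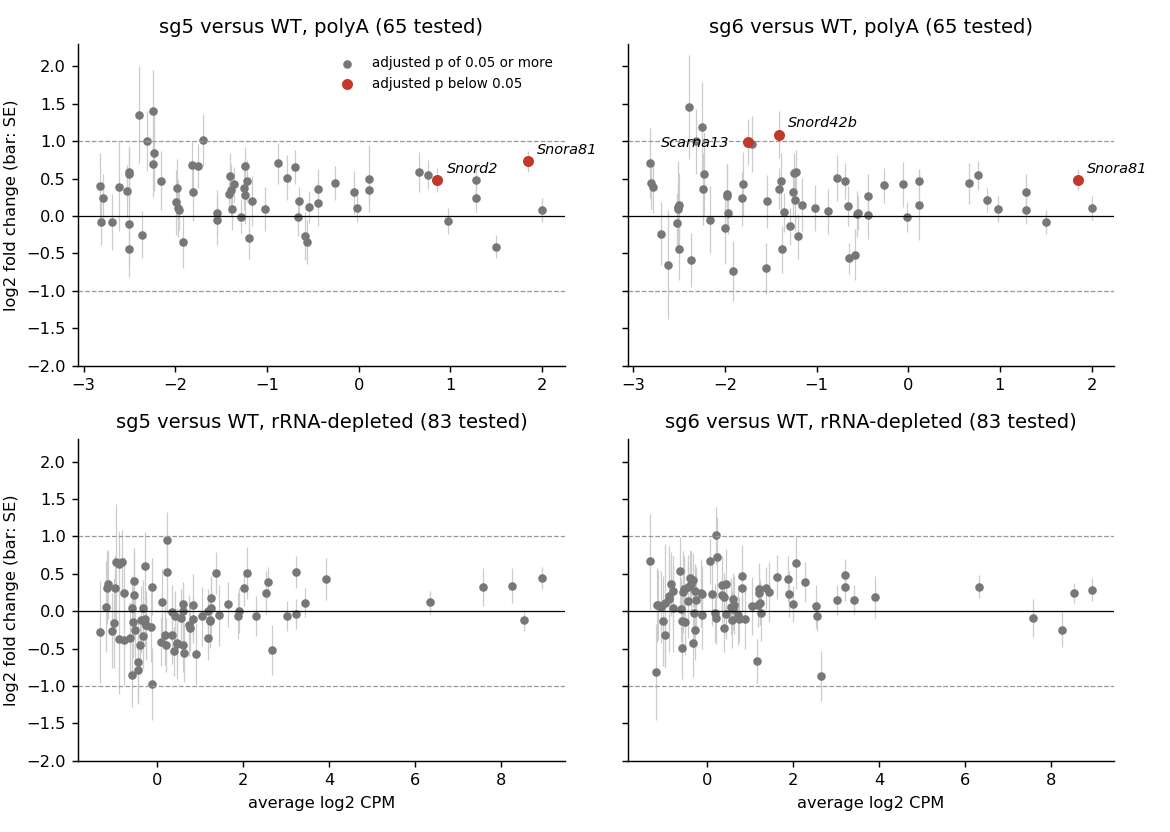
Each panel plots the log2 fold change of every tested member (y, bar: SE) against its average log2 CPM (x) for sg5 and sg6 against WT, in polyA (65 members) and rRNA-depleted (83 members) libraries, with dashed lines at -1 and 1. Red points have an adjusted p below 0.05: *Snora81* and *Snord2* in polyA sg5, *Snora81*, *Scarna13* and *Snord42b* in polyA sg6, and none in rRNA-depleted libraries.

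The kinds of library, which share no WT library, were set side by side for the 58 members tested in both. The fold change had the same sign in both kinds for 29 of 58 members (50%) in sg5 and for 43 of 58 (74.1%) in sg6. In sg6, 37 of the 43 were above 0 in both. Most members tested in sg6 were above 0 in each kind (49 of 65 in polyA, 59 of 83 in rRNA-depleted libraries). Equal signs are then frequent without any relation between the kinds. The share of all genes with equal signs was not computed. Across these members Pearson's r between the kinds was 0.22 in sg5 and 0.25 in sg6, as a description across genes that share libraries and hosts. No member passed the adjusted test in both kinds.

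The protein genes of the snoRNA pathway were counted beside all genes tested. Of 31 genes for core proteins, assembly factors, processing enzymes and Cajal body proteins, all were tested and 0 were called in any comparison by edgeR or DESeq2, against 10.1% and 11.2% of genes in polyA sg5 and sg6. 9, 11 and 2 had an unadjusted p under 0.05 in polyA for sg5, sg6 and sg5 against sg6, and 7, 3 and 1 in rRNA-depleted libraries. By adjusted p alone 4 rose and 3 fell in polyA sg5, 4 rose and 2 fell in polyA sg6, and 1 rose and 2 fell in rRNA-depleted sg5. Of all genes tested, 27.0% and 30.7% passed in polyA sg5 and sg6 and 10.7% in rRNA-depleted sg5. *Fbl*, *Nop56* and *Nop58*, of the C/D core, and *Dkc1*, *Nhp2* and *Gar1*, of the H/ACA core, did not pass in any comparison. *Nop10*, of the H/ACA core, rose by 0.29 and 0.31 in polyA sg5 and sg6 (adjusted p = 0.0464 and 0.0317, edgeR).

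The 5'-3' exonuclease gene *Xrn2* rose in polyA sg5 and sg6 by 0.51 and 0.50 (adjusted p = 0.00304 and 0.00261) and in rRNA-depleted sg5 by 0.58 (adjusted p = 0.0175), and had 0.46 in rRNA-depleted sg6 (adjusted p = 0.075, edgeR). *Coil*, which encodes the Cajal body protein coilin, fell by 0.54 and 0.50 on the log2 scale in polyA sg5 and sg6 (adjusted p = 0.00879 and 0.0112) and by 0.65 in rRNA-depleted sg5 (adjusted p = 0.0403). Its rRNA-depleted value in sg6 was -0.31, which did not pass. The H/ACA assembly factor gene *Shq1* fell by 0.39 and 0.38 in polyA sg5 and sg6. *Znhit3*, of the C/D assembly complex, fell in sg5 by 0.51 in polyA (adjusted p = 0.0353) and by 0.70 in rRNA-depleted libraries (adjusted p = 0.0321, edgeR).

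Host genes were described in the same way. 77 of the 78 distinct hosts were tested, and 0 were called in any comparison by edgeR or DESeq2, with 19, 22 and 5 at an unadjusted p under 0.05 in polyA and 18, 17 and 3 in rRNA-depleted libraries. Of all genes 10.1% and 11.2% were called in polyA sg5 and sg6. By adjusted p alone 11 rose in polyA sg5 and 16 in polyA sg6, against 13.6% and 16.1% of all genes higher, and none fell. Of all genes, 27.0% and 30.7% passed there in either direction. In rRNA-depleted libraries 2 rose in sg5 and 1 in sg6, where 10.7% and 7.58% passed in either direction. *Rpl17*, a ribosomal protein gene, rose by 0.52 and 0.53 in polyA sg5 and sg6 and by 0.71 and 0.67 in rRNA-depleted libraries. *Eif5*, a translation initiation factor gene and host of *Snora28*, rose by 0.67 and 0.71 in polyA libraries (adjusted p = 0.0144 and 0.00925, edgeR).

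Of 18 noncoding host genes (*Snhg* genes and *Gas5*, several of them also among the hosts), 18 were tested in polyA and 16 in rRNA-depleted libraries and 0 were called by edgeR or DESeq2. The share of all genes called was 10.1% and 11.2% in polyA sg5 and sg6 and 7.35% and 5.75% in rRNA-depleted libraries, and 27.0% and 30.7% of genes passed by adjusted p alone in polyA. 3, 6 and 2 had an unadjusted p under 0.05 in polyA and 4, 5 and 1 in rRNA-depleted libraries. By adjusted p alone *Snhg1* rose and *Snhg20* fell in polyA sg5, and *Snhg1*, *Snhg12*, *Snhg18* and *Gas5* rose in polyA sg6, by 0.29 to 0.72. *Snhg20* also fell in rRNA-depleted sg5, by 0.76 on the log2 scale (adjusted p = 0.0175, edgeR). *Snhg12*, host of 4 members, had the largest of these rises, 0.72 in polyA sg6 (adjusted p = 0.00832).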

How the data were processed

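The deposited polyA values were expected counts per gene, which the authors made with Salmon (0.8.2 in the submitters' processing notes) on mm10 known genes and summed with tximport. The deposited rRNA-depleted values were counts of genes and transposable element loci, which the authors made with STAR (2.27.10a) and TElocal, sharing out reads with up to 100 alignments. Reads that fit several copies of a sequence can thus be split between rows. The strand setting was not given in the sources used here. No per-sample column was left unused, and the numbering of the libraries was taken from the labels.

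Entrez identifiers were matched to RefSeq symbols (24045 of 24100 gene rows), and all 111 members to GENCODE on GRCm38, which gave lengths, hosts and sequences. 142 RefSeq genes have a symbol that meets the rule, and those without a row were not analysed here. CPM used the sum of gene rows, and in rRNA-depleted libraries gene rows held 84.5% to 89.6% of all counts. RefSeq intervals were under 90% of the GENCODE length for 60 members. 31-base words of 34 members occur in other annotated genes and of 49 in host transcripts.

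Tests used edgeR 4.0.16 in R 4.3.3 (quasi-likelihood, TMM, filterByExpr with a minimum count of 10 and total of 15, Benjamini-Hochberg adjustment) on all 9 libraries of a kind in one fit. PolyA expected counts were read as integers, with no rounding step run here. The polyA fit tested 15480 genes and the rRNA-depleted fit 56086 features, 13303 of them genes. The fits were also run on simulated counts with changes beyond the log2 limit of 1. The outcome is not given here, and smaller changes, such as those of most members, were not simulated. Alternatives were DESeq2 1.42.0, RLE size factors, other filters, a replicate block, glmTreat, fits of 2 groups, thinned counts and leaving out each library.

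The members and lists were chosen with earlier results of these data known. Members were named if called in either clone, if among the 8 highest of a kind or the highest of a class, with their hosts and the core protein genes. Members outside this rule (*Snord34*, *Snord35a*, *Scarna9*, *Snora74a*, *Snora41*, *Snord57*, *Snord73a*, *Snord65*, *Snord58b*, *Snord123*, *Snora75*, *Snord17*, *Snora35*, *Snord14d*, *Snord53* and the remaining Cajal body members) and the list genes named for passing the adjusted test were chosen after their values were seen.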

Additional observations from a re-analysis of the deposited data

Results flagged for a closer look

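*Snord65*, a C/D gene in an intron of *2410006H16Rik*, lay on opposite sides of WT in the 2 clones in rRNA-depleted libraries. It had 0.992, 1.15 and 0.928 CPM in WT, 0.707, 0.665 and 0.703 in sg5 and 1.30, 1.78 and 1.37 in sg6. Every sg5 library was thus below and every sg6 library above every WT library. All members tested (65 in polyA and 83 in rRNA-depleted libraries) were searched for such a split, and *Snord65* was the single one found. The share of all genes with such a split was not computed. The log2 fold changes against the shared WT libraries were -0.41 and 0.68, with adjusted p = 0.590 and 0.388 (edgeR), so neither passed. The difference between the clones was -1.08 ± 0.32 (SE), with an adjusted p = 0.300 in the edgeR fit, so the test of the difference itself missed the threshold. The polyA table lists it at 0 in all 9 libraries, and no cause was tested.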

How the results depend on the processing

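Counts of called members in polyA libraries depended on the setting. In sg5 the count was 0, and it was 1 with the replicate block and 2 by adjusted p alone, and 0 to 1 with each library left out (1 without the first WT library, *Snord58b*, the first sg5 library, *Snord123*, or the third, *Snora75*). In sg6 the count was 1, and it was 0 with at least 10 counts in every library, under glmTreat and in a fit of sg6 and WT alone, 3 by adjusted p alone and 3 with the replicate block. It was 0 to 2 with each library left out. It was 0 without the first WT, first sg6 or second sg6 library, *Scarna13* in place of *Snord42b* without the third WT library, and 2 without the third sg6 library. The mean of each line was subtracted from the log CPM of each gene, and these deviations were correlated between libraries of different lines. They correlated at 0.0257 to 0.43 for same-numbered polyA libraries and at -0.236 to 0.641 for same-numbered rRNA-depleted ones. 9 of 9 polyA libraries and 6 of 9 rRNA-depleted ones correlated best with their own number, a hint from the data and not the design. The sources used here name no pairing, so the main fits had no block. With the block, 7 members were higher by adjusted p alone in polyA sg5 and 5 in polyA sg6, against 2 and 3 without it. The share of all genes higher is given for the fit without the block only, at 13.6% and 16.1%. The block also raised the genes called, of 15480 tested. They went from 493 higher and 1078 lower to 539 and 1111 in sg5, and from 563 and 1167 to 598 and 1219 in sg6. Counts in rRNA-depleted libraries stayed at 0 under every alternative run, the block included, as did those of the protein, host and *Snhg* lists in both kinds.

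Thinning to the smallest library gave a mean of 24.7 members with at least 10 counts in polyA WT and sg5, 20.3 in sg6 and 70.3 in rRNA-depleted WT. With transposable element loci in the denominator, members held 0.149% of rRNA-depleted WT and 0.162% of sg5 counts. The median log2 ratio of kinds in WT, sg5 and sg6 was 1.70, 1.42 and 1.56 with a prior of 0.1 CPM, 0.69 and 0.51 in WT and sg5 with a prior of 1 CPM, and 1.21, 1.02 and 1.23 over members with at least 10 counts. With 1 replicate left out it ran from 0.93 to 1.05, 0.69 to 0.81 and 0.77 to 1.03. Same-sign members in sg5 were 37.5% of those with at least 10 counts in every library (24 members).

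Some log2 fold changes that did not pass the adjusted test changed sign. With each library left out, log2 fold changes in rRNA-depleted sg6 ran from -0.42 to 0.090 for *Scarna10*, -0.30 to 0.18 for *Scarna2*, -0.033 to 0.36 for *Snora28*, -0.089 to 0.42 for *Snora31*, -0.17 to 0.28 for *Snora65* and -0.13 to 0.036 for *Snora70*. In rRNA-depleted sg5 they ran from -0.086 to 0.013 for *Snora81*, -0.15 to 0.10 for *Snord104* and -0.043 to 0.30 for *Snord88a*, and *Snord104* was 0.011 with DESeq2 and 0.0089 with RLE size factors. In polyA sg6 they ran from -0.18 to 0.47 for *Scarna6*, -0.040 to 0.21 for *Snora65*, -0.21 to 0.56 for *Snord88a* and -0.015 to 0.16 for *Snord96a*, and in polyA sg5 from -0.16 to 0.028 for *Snora70* and -0.030 to 0.18 for *Snord96a*. Thinning gave *Snord96a* -0.075 in polyA sg5 and -0.11 in sg6. The cause was not tested.

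Members of few counts limit these results, and a difference that was not called is not shown to be absent.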
